A study of Homo sapiens with 21 samples.

Results

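MYC and the genes that control the G1 phase of the cell cycle were examined in A549 xenografts from mice given an oxysterol or vehicle. The set was taken by gene symbol from the table of raw gene counts and holds 10 genes of 60651: MYC, the D-type cyclins CCND1, CCND2 and CCND3, the kinases CDK4 and CDK6, the cyclin CCNE1, the inhibitors CDKN1B and CDKN2A, and RB1. All 10 were found, and 8 of them passed the filter on low counts in every comparison. CCND2 and CDKN2A did not pass it and are described by their counts.

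RNA was sequenced from 21 tumors, 7 in each of 3 groups. A549 is a line of human lung adenocarcinoma cells, and the cells carried a luciferase reporter (A549-Luc2, from ATCC). They were grown under the skin of the hind flank of female athymic nu/nu mice aged 6 to 8 weeks, a strain that lacks T cells, so that stroma, vessels and the remaining immune cells of each tumor came from the mouse. Mice were randomized at tumor volumes of 80 to 100 mm3, with 10 mice per group. Oxy186-treated and Oxy210-treated mice received the oxysterol at 50 mg/kg each day by oral gavage, and the control group received the formulation alone, which was made of DMSO, ethanol, PEG400 and corn oil. All 3 groups therefore share the cell line, the host strain and the vehicle. The study compared each oxysterol with control, and for Oxy186 its sequencing analysis used the tumors r1-r4, which it picked from a principal component plot of these same libraries. The p-values of that comparison therefore do not stand for the treatment, and comparisons of all 7 Oxy186-treated tumors are given first. From the sequencing data, the study reported negative enrichment of a MYC and a CCND1 up-regulated gene set with Oxy186. By RT-qPCR of xenografts, it also reported MYC and CCND1 significantly lower with Oxy186 and only slightly lower with Oxy210. Genes it chose from those sets were significantly lower with Oxy186 by RT-qPCR. RT-qPCR is another assay than the counts used here, and which tumors it used is not stated.

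MYC is a transcription factor that binds DNA with its partner MAX at sites with the letters CACGTG and raises the transcription of many genes of growth, ribosome production and cell division. D-type cyclins are made in response to growth signals and activate CDK4 and CDK6, which phosphorylate RB1. RB1 holds back the E2F transcription factors, and its phosphorylation, completed by CCNE1 with CDK2, lets the cell enter S phase. CDKN2A encodes p16, an inhibitor of CDK4 and CDK6, and CDKN1B encodes p27, an inhibitor of CDK2. Both MYC and CCND1 are known as transcriptional targets of WNT signaling, and A549 is known for a homozygous deletion of CDKN2A and for an intact RB1.

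The bases before the start of 3 of these genes are shown because MYC is known to act through CACGTG. RefSeq (GRCh38.p14) promoter entries were used for 7 of the 10 genes (MYC, CCND1 and CCND2 were not analysed here), and the 250 bases before the start were searched in each entry, with CACGTG, which reads the same on both strands, in capitals. CDK4 was the only one of the 7 to hold it in these entries, and it held 3 copies, at 216, 196 and 101 bases before the start. The RB1 entry (chr13:48476200-48476449) lies inside the annotated gene, which starts at 48303744. The entries of CDK4, CDKN1B and CCND3 also lie inside their annotated genes, that of CDK4 inside 57747727 to 57756013 on the minus strand. The bases before the annotated starts of RB1, CDK4, CDKN1B and CCND3 were therefore not searched. The CDK4 positions are counted from the start that its entry precedes, not from the annotated start of the gene. CCNE1 is shown because it followed MYC most closely across tumors among the genes other than D cyclins, and CDK6 because it is the partner kinase of CDK4; neither holds the motif. All 3 are written 5′ to 3′ on the strand of the gene, from chr12:57752311-57752560 (minus strand) for CDK4, chr19:29811741-29811990 (plus strand) for CCNE1 and chr7:92836574-92836823 (minus strand) for CDK6.
CDK4: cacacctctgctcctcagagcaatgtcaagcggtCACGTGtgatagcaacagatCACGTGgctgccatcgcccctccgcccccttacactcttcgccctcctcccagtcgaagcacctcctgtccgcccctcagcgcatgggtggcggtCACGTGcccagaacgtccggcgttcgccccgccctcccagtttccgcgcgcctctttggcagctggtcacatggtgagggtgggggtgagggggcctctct
CCNE1: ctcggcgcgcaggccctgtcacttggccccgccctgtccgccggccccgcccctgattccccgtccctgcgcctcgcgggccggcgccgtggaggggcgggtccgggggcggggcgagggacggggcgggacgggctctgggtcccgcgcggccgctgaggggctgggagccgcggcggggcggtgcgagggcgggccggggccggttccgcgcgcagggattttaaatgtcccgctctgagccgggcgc
CDK6: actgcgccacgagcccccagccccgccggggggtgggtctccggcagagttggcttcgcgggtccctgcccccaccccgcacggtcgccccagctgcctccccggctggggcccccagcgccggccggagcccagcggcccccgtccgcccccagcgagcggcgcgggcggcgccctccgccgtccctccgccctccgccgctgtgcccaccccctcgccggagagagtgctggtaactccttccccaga
Of 35116 promoter entries of the same length, 6.34% held CACGTG and 0.0797% held it 3 or more times. The E2F forms TTTCGCGC, TTTGGCGC and TTTCCCGC, searched on both strands, were in none of the members' entries and in 0.439%, 0.550% and 1.39% of all entries. A match is a description of letters only.

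The deposited libraries held 13787493 to 17865119 counts on human genes, with group medians of 15082627 in the control group, 15031344 in Oxy186-treated samples and 14992492 in Oxy210-treated samples. The 5 markers of A549 epithelium (KRT8, KRT18, EPCAM, AKR1B10 and AKR1C1) summed to 7818 to 15932 CPM (counts scaled to a common library size) in every tumor. The 8 stroma and vessel markers, all of which had counts in at least 1 tumor, summed to 35.0 to 73.3 CPM in the control group, 20.4 to 73.2 in Oxy186-treated samples and 29.9 to 68.7 in Oxy210-treated samples. COL1A1 gave most of this, with 256 to 1031 counts per tumor, while COL1A2 had at most 1 and VWF at most 2. The 4 leukocyte markers summed to 4.40 to 9.99 CPM over all tumors, mostly from ITGAM. The part of misassigned mouse reads in the levels below was not tested. In bulk tumor RNA, fewer cells of a type and less RNA per cell cannot be told apart.

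CDKN2A, the inhibitor known to be lost in A549, had 0 counts in all 21 tumors, which allows at most 0.218 CPM in the shallowest library and 0.00947 CPM over the 316955900 counts of all libraries. Its gene lies on chromosome 9, from 21967752 to 21995301 on the minus strand. CDKN2B, its neighbor and the inhibitor p15, and CDKN2A-DT were also at 0 in every tumor. For comparison, 21142 of the 60651 genes had 0 counts in all libraries. MTAP, a methionine salvage enzyme and the next protein-coding gene on one side, had 1 to 15 counts with a median of 3. Of the 14 annotated genes from the start of MTAP to the end of CDKN2B-AS1, 11 were at 0 in all tumors. CDKN2B-AS1, a long noncoding RNA that starts inside CDKN2A on the opposite strand, was counted at 87 to 195 with a median of 127. Which of its exons held these reads was not analysed here.

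**Figure D1:**
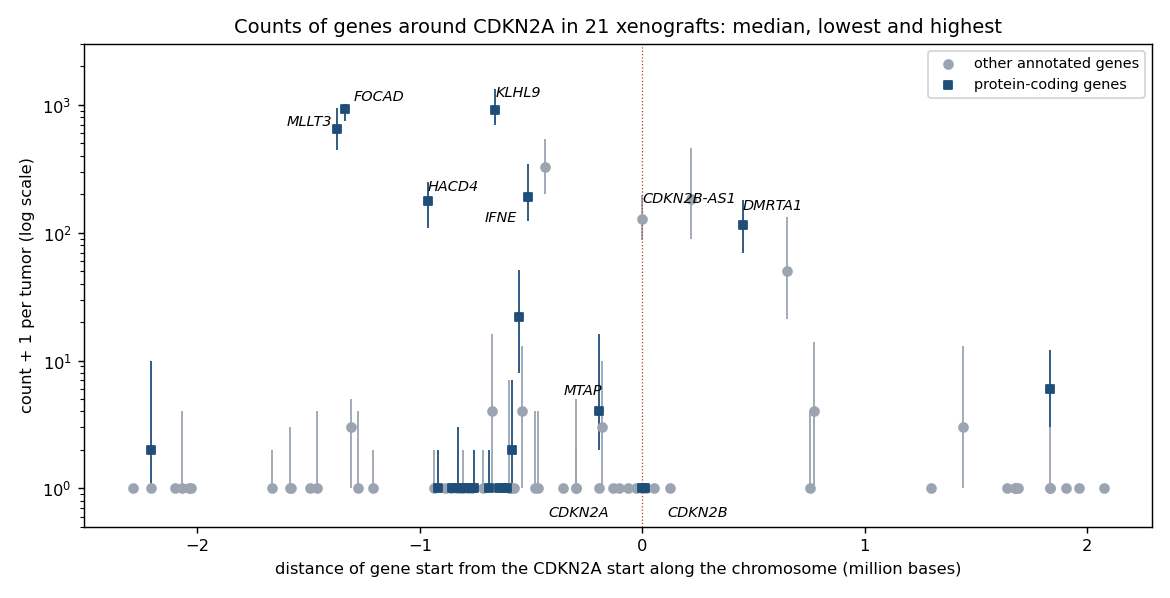
Counts per tumor of the 87 annotated genes within 2.5 Mb of CDKN2A, plotted as count + 1 on a log scale against the distance of each gene's start from that of CDKN2A. Points are medians over 21 tumors and lines run from the lowest to the highest tumor; CDKN2A and CDKN2B lie at a count of 0, between genes such as KLHL9 (median 915) and DMRTA1 (median 115).

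Some genes on either side were counted in every tumor. Among the 26 protein-coding genes within 2.5 Mb of CDKN2A, 11 were at 0 in all tumors, 9 of which were type I interferon genes, and 7 had a median of at least 10 counts. These were FOCAD (median 937), KLHL9 (915), MLLT3 (646), IFNE (189), HACD4 (175), DMRTA1 (115) and IFNA1 (21). CDKN2A, CDKN2B and CDKN2A-DT were at 0 in each of the 7 tumors of every group, and MTAP had a median of 2 counts in the control group, 2 in Oxy186-treated samples and 7 in Oxy210-treated samples. The mouse cells of the tumors carry their own Cdkn2a gene, and no read of any library was counted on the human gene. How much Cdkn2a RNA these cells held was not measured here.

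The order of the levels in vehicle-treated tumors was set by CCND1. On a scale per exon length (RPKM, CPM divided by the kilobases of annotated exon), the medians of the 7 control tumors were 64.2 for CCND1, 27.8 for CDK4, 20.1 for CCND3, 10.7 for MYC, 10.0 for CDKN1B, 6.63 for CCNE1, 6.29 for RB1, 4.90 for CDK6, 0.0262 for CCND2 and 0 for CDKN2A. The lowest control tumor for CCND1 (48.4 RPKM) lay above all 7 control tumors for CDK4, and the lowest for CDK6 (3.41) lay above the highest for CCND2 (0.0730). Every other neighboring pair in this order overlapped between tumors and was not separated beyond their spread. Per exon length, CDK4 was above CDK6 in every tumor. The ratio of their RPKM values ran from 4.52 to 8.76 in the control group, from 2.22 to 8.45 in Oxy186-treated samples and from 3.75 to 7.65 in Oxy210-treated samples. The annotated exons hold 3094 bases for CDK4 and 12239 for CDK6. In counts CDK6 was above CDK4 in some tumors, as in Oxy186 r4 (1230 against 689). RPKM levels depend on these lengths, and the lengths of the transcripts expressed were not analysed here. Annotated exons of TSPAN31, on the opposite strand, cover 44.2% of the exon bases of CDK4, and whether counting used strand is not given in the sources used here, so the level of CDK4 is uncertain to that extent.

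Among the D-type cyclins, CCND1 held 67.7% to 87.1% of the summed RPKM in the 21 tumors and CCND3 12.9% to 32.3%. CCND2 held at most 0.145%. Its counts were 0 to 8 in the control group, 0 to 6 in Oxy186-treated samples and 0 to 9 in Oxy210-treated samples, and the group totals were 24, 24 and 26 counts. No difference in CCND2 was detectable at this depth, and no fold change is given.

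**Figure D2:**
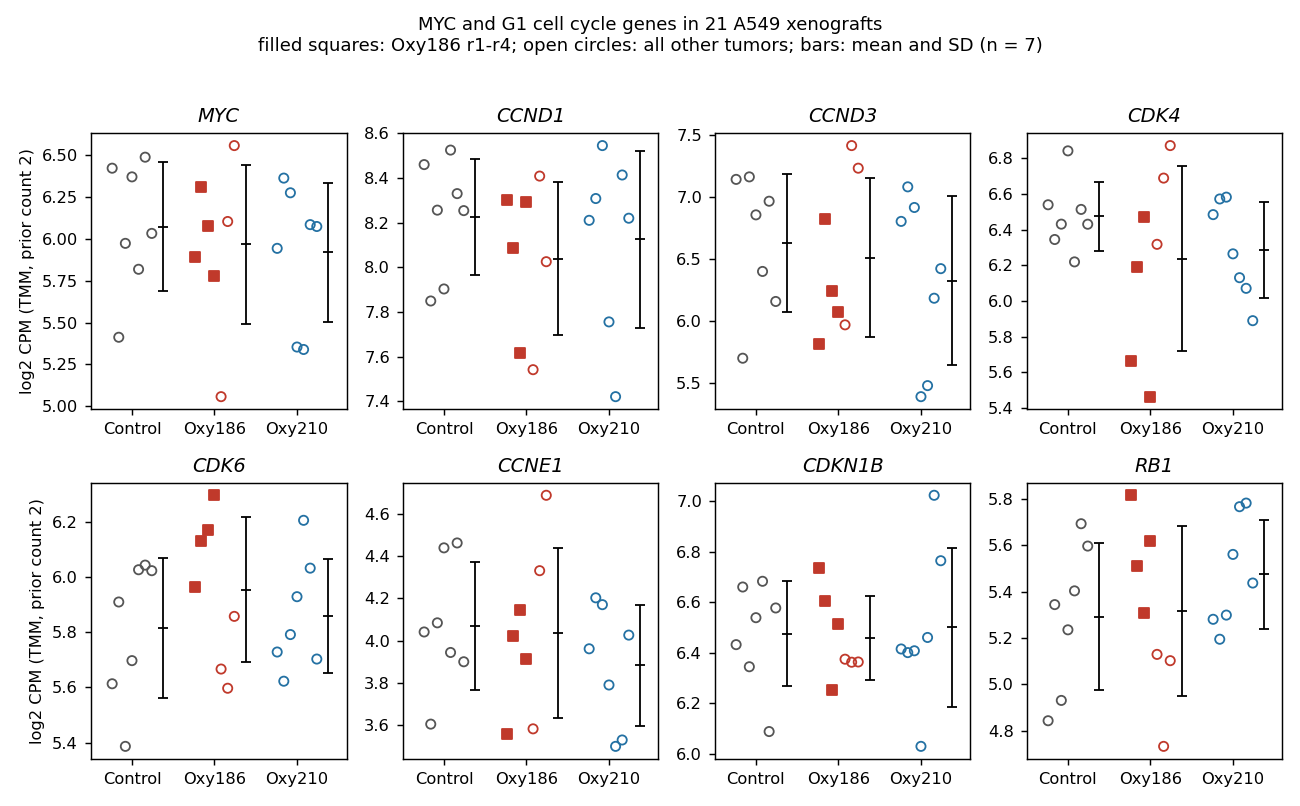
Log2 CPM of 8 genes (y axis, separate scale for each gene) in the 21 tumors by group. Each point is a tumor, filled squares are the Oxy186-treated tumors r1-r4, and bars give the group mean and SD (n = 7); for every gene the 3 groups overlap, as for MYC at 5.41 to 6.49, 5.06 to 6.56 and 5.34 to 6.36.

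The 3 groups overlapped for each of the 8 measured genes. Levels here are log2 CPM after TMM scaling (trimmed mean of M values) with a prior count of 2. MYC ran from 5.41 to 6.49 with a median of 6.03 in the control group, from 5.06 to 6.56 with a median of 6.07 in Oxy186-treated samples, and from 5.34 to 6.36 with a median of 6.07 in Oxy210-treated samples. The lowest tumor of the series was Oxy186 r5 and the highest Oxy186 r7, so that a single group spanned the whole range of MYC.

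CCND1, the main D-type cyclin of these tumors, ran from 7.85 to 8.52 (median 8.26) in the control group, from 7.54 to 8.41 (median 8.09) in Oxy186-treated samples and from 7.42 to 8.55 (median 8.22) in Oxy210-treated samples. CCND3, a D-type cyclin with broad expression, ran from 5.70 to 7.17 (median 6.86), from 5.82 to 7.42 (median 6.24) and from 5.39 to 7.08 (median 6.42). CCND3 was the most variable of the 8, with a 4.08-fold range over the 21 tumors, and its low and high tumors were found in every group.

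CDK4 ran from 6.22 to 6.84 (median 6.43) in the control group, from 5.46 to 6.87 (median 6.32) in Oxy186-treated samples and from 5.89 to 6.58 (median 6.26) in Oxy210-treated samples. CDK6 ran from 5.39 to 6.04 (median 5.91), from 5.60 to 6.30 (median 5.96) and from 5.62 to 6.21 (median 5.79). The 2 lowest tumors for CDK4 were Oxy186 r4 and r1, and the highest for CDK6 was Oxy186 r4, followed by Oxy210 r5.

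CCNE1, the cyclin that completes RB1 phosphorylation, ran from 3.60 to 4.46 (median 4.04) in the control group, from 3.56 to 4.69 (median 4.02) in Oxy186-treated samples and from 3.50 to 4.20 (median 3.96) in Oxy210-treated samples. RB1 ran from 4.84 to 5.69 (median 5.34), from 4.73 to 5.82 (median 5.31) and from 5.19 to 5.78 (median 5.44). CDKN1B, the inhibitor p27, ran from 6.09 to 6.68 (median 6.54), from 6.25 to 6.74 (median 6.37) and from 6.03 to 7.02 (median 6.41). For CDKN1B the highest tumor was Oxy210 r6, followed by Oxy210 r7 at 6.76.

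Whether Oxy186 changed these genes was asked in all 7 treated tumors against the 7 control tumors. None of the 8 passed, where a gene was called at an adjusted p of 0.05 or under (edgeR quasi-likelihood test, p-values adjusted by Benjamini-Hochberg over 16291 genes). The same test called 0% of all genes, so the count of members says nothing particular to them. At an unadjusted p under 0.05, 0 of the 8 genes and 3.79% of all genes were found, and limma voom and DESeq2 called 0 of the 8 as well. The log2 fold change of MYC was -0.10 (SE 0.20, 95% interval -0.53 to 0.33) and that of CCND1 was -0.19 (SE 0.16, interval -0.53 to 0.15). For CCND3 it was -0.09, for CDK4 -0.19, for CDK6 0.12, for CCNE1 -0.03, for CDKN1B -0.04 and for RB1 0.01. The smallest adjusted p among the 8 was 0.862, by edgeR. The outermost ends of the 8 separate intervals were 0.630-fold and 1.41-fold, both those of CCND3. Each interval holds for its own gene and for TMM scaling, and they are not a joint bound for the set. The median over the 8 genes was -0.06 on the log2 scale, beside -0.01 over all genes tested. These p-values weigh a group difference against the spread between tumors. Each tumor was taken to come from a separate mouse, which the sources used here do not state.

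Oxy210-treated samples were compared with control in the same way. None of the 8 genes passed, where edgeR called 0% of 16396 genes and limma voom called none of the 8. DESeq2 also called none of the 8 genes, but it called 92 genes in the whole table. At an unadjusted p under 0.05, 0 of the 8 genes and 13.8% of all genes were found. MYC had a log2 fold change of -0.13 (SE 0.18, interval -0.50 to 0.24) and CCND1 of -0.06 (SE 0.15, interval -0.38 to 0.26). The largest was that of CCND3 at -0.24 (SE 0.26), followed by RB1 at 0.19 (SE 0.15) and CCNE1 at -0.17 (SE 0.15). CDK4 was at -0.16 (SE 0.12) with the smallest adjusted p, 0.517 by edgeR, and CDK6 and CDKN1B were both at 0.06. The outermost ends of the 8 separate intervals were 0.582-fold (CCND3) and 1.42-fold (RB1). The median over the 8 genes was -0.10, beside 0.01 over all genes. The same control tumors serve this comparison and the preceding one.

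Oxy186 and Oxy210 are related oxysterols given at the same dose, and as 1 pair of compounds they were compared directly, 7 tumors against 7. None of the 8 genes passed, where edgeR called 0% of 16361 genes, and limma voom called none of the 8. DESeq2 called 14 genes in the whole table, but of the 8 it gave an adjusted p to CCND1 alone (0.994) and left the other 7 without one. At an unadjusted p under 0.05, 0 of the 8 genes and 4.06% of all genes were found. With GC offsets, a correction for base composition described below, edgeR called 0.00611% of all genes, each higher in Oxy186, and 0 of the 8, with 8.12% of all genes at an unadjusted p under 0.05. The difference in MYC, Oxy186 minus Oxy210, was 0.06 on the log2 scale with a 95% interval of -0.38 to 0.49. That in CCND1 was -0.10 (interval -0.47 to 0.26), in CCND3 0.18 (-0.45 to 0.81), in CDK4 0.00 (-0.41 to 0.41) and in CDK6 0.09 (-0.20 to 0.38). CCNE1 differed by 0.17 (-0.22 to 0.55), CDKN1B by -0.07 (-0.37 to 0.22) and RB1 by -0.15 (-0.49 to 0.20). The outermost ends of these 8 separate intervals were 0.711-fold and 1.75-fold, the latter that of CCND3, which is not a showing that the compounds act alike. For no gene of the 8 were 2 of the groups free of overlap, where 0.0235% of 16990 genes were in Oxy186 against control, 0.182% in Oxy210 against control and 0.0647% between the oxysterols.

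**Figure D3:**
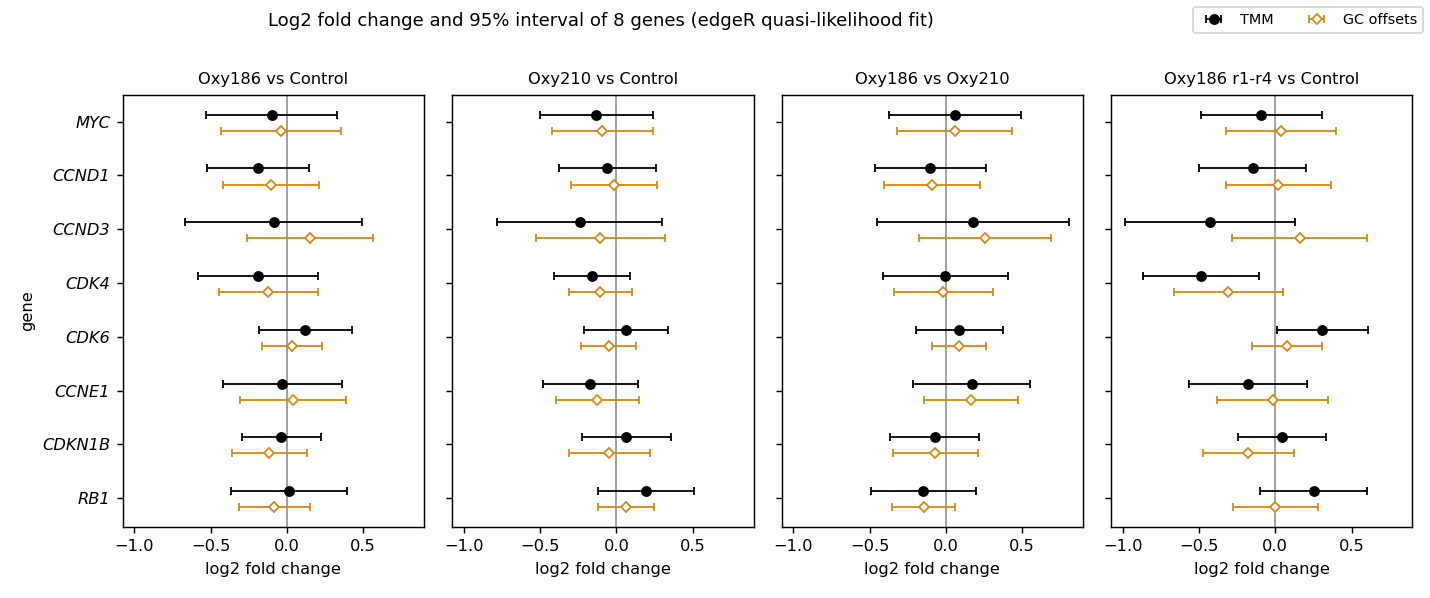
Log2 fold change (x axis) with its 95% interval for 8 genes (y axis) in 4 comparisons, from edgeR with TMM scaling (black circles) and with the GC trend of each library entered as an offset (open diamonds). The intervals cross 0 except those of CDK4 (-0.49) and CDK6 (0.31) in Oxy186 r1-r4 against control, which cross 0 with the offsets.

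The 4 Oxy186-treated tumors that the study had singled out were then set against the control group. Here edgeR called 19.7% of 16852 genes (797 higher, 2526 lower) but 0 of the 8, and 2 of the 8 genes against 34.7% of all genes had an unadjusted p under 0.05. MYC stood at 5.89, 6.31, 6.07 and 5.78 log2 CPM in r1, r2, r3 and r4, within the control range of 5.41 to 6.49, with a log2 fold change of -0.09 (SE 0.19, interval -0.49 to 0.30). CCND1 stood at 8.30, 8.09, 7.62 and 8.29, of which 1 lay below the control range, with a log2 fold change of -0.15 (SE 0.17, interval -0.50 to 0.20). MYC and CCND1 were thus not called in tumors where many other genes were. Their intervals include means below and above that of the control group, so a change within them is not excluded.

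CDK4 and CDK6 had the smallest p-values of the 8 in r1-r4 against control. CDK4 stood at 5.66, 6.19, 6.47 and 5.46 log2 CPM, and 3 of the 4 lay below the lowest control tumor at 6.22. Its log2 fold change was -0.49 (SE 0.18, interval -0.87 to -0.11) with an adjusted p of 0.0669 by edgeR, short of the threshold. It passed with limma voom (-0.54, adjusted p = 0.0439) and, in edgeR, without Oxy186 r3 (-0.68, adjusted p = 0.0240). Over the alternatives that kept all libraries its adjusted p ran from 0.0439 to 0.564. TSPAN31, whose exons overlap it, had a log2 fold change of 0.12 (SE 0.12) in the same comparison. CDK6 stood at 5.96 to 6.30, and 3 of the 4 lay above the highest control tumor at 6.04, with a log2 fold change of 0.31 (SE 0.14, interval 0.01 to 0.61, adjusted p = 0.129 by edgeR). The ratio of CDK4 to CDK6 per length was 2.22 to 4.88 in r1-r4 and 6.22 to 8.45 in Oxy186 r5-r7, against 4.52 to 8.76 in the control group. In r1-r4, 3 of the 4 ratios lay below the control range and that of r3 (4.88) lay inside it, while Oxy210 r5, r6 and r7 (3.75, 4.06 and 4.50) also lay below it.

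CCND3 was at -0.43 (SE 0.26), RB1 at 0.25 (SE 0.17), CCNE1 at -0.18 (SE 0.18) and CDKN1B at 0.05 (SE 0.14) in r1-r4 against control, all with an adjusted p of 0.257 or more by edgeR. For no gene of the 8 were r1-r4 and control free of overlap, where 11.6% of 16990 genes were. With the GC trend of each library entered as an offset, edgeR called 4.05% of all genes (1.79% higher, 2.26% lower) and 0 of the 8, and 0 of the 8 against 18.7% of all genes had an unadjusted p under 0.05. CDK4 was then at -0.31 (adjusted p = 0.347), CDK6 at 0.08, RB1 at 0.00 and CCND3 at 0.16. MYC was at 0.04 and CCND1 at 0.02, so that their sign in r1-r4 turned as well.

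The libraries differed in how counts followed base composition, and 4 of the 8 genes moved with it, as did many others: 36.6% of 13608 genes had an absolute r with the slope of at least 0.677, the lowest among these 4. A GC slope was taken for each library as the change of a gene's log2 CPM, relative to its mean, per 10 points of exon GC content. It ran from -0.15 to 0.40 in the control group, from -0.51 to -0.18 in Oxy186 r1-r4, from 0.08 to 0.49 in Oxy186 r5-r7 and from -0.33 to 0.26 in Oxy210-treated samples. CDK6 and RB1, with 40.4% and 36.9% exon GC, fell as the slope rose, with a Pearson r of -0.818 (Spearman rho -0.844, permutation p = 3e-05 and 2e-05) and -0.775 (rho -0.814, permutation p = 4e-05 and 1e-05, the smallest that these permutations can give) over 21 tumors. CCND3 and CDK4, with 58.2% and 52.6% exon GC, rose with it, with an r of 0.684 (rho 0.727, permutation p = 0.00063 and 0.00032) and 0.677 (rho 0.742, permutation p = 0.00074 and 0.00024). The slope was computed from the same log2 CPM values over many genes. By its definition, genes of low exon GC tend to fall with it and genes of high exon GC tend to rise. These p-values therefore show no relation particular to the 4 genes.

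**Figure D4:**
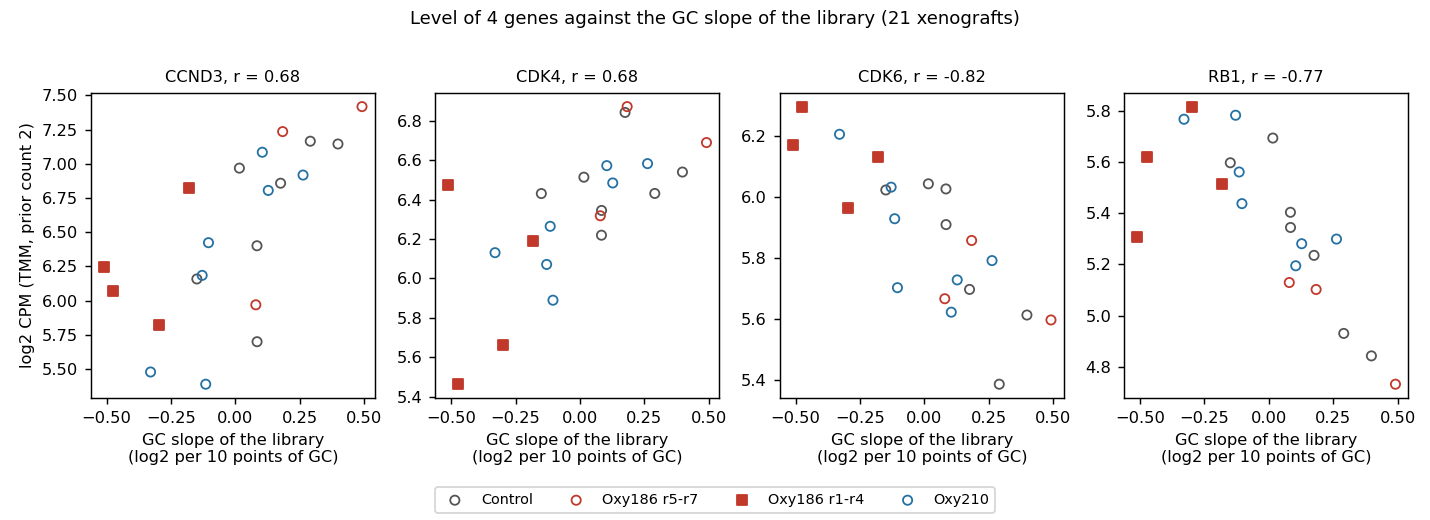
Log2 CPM of CCND3, CDK4, CDK6 and RB1 (y axis) against the GC slope of the library (x axis, log2 per 10 points of exon GC) in 21 tumors. Filled squares are Oxy186 r1-r4, which lie at slopes of -0.51 to -0.18, where 1 other tumor is found (Oxy210 r5 at -0.33). CCND3 and CDK4 rise and CDK6 and RB1 fall along the axis.

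The adjusted p over the 8 relations, which were added after the data were seen, was 0.00148 or less for r of these 4 genes. Without the 2 tumors of most extreme slope, r was 0.738 for CCND3, 0.733 for CDK4, -0.754 for CDK6 and -0.915 for RB1. In the 17 tumors other than Oxy186 r1-r4 it was 0.782, 0.661, -0.739 and -0.907. MYC (r 0.299, rho 0.418), CCND1 (r 0.398, rho 0.378), CCNE1 (r 0.431, rho 0.558) and CDKN1B (r -0.164, rho -0.273) had permutation p-values for r of 0.189, 0.073, 0.0513 and 0.479, and for rho of 0.0605, 0.0928, 0.00927 and 0.231, so that CCNE1 passed by rho (adjusted p = 0.0148) and not by r (adjusted p = 0.082). Where the slope comes from was not tested.

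The spread between tumors of the same group was widest in CCND3 and MYC. Within groups, the SD of log2 CPM was 0.63 for CCND3, which is at percentile 92.0 of the 13608 genes whose mean log2 CPM reached 1, and 0.43 for MYC (percentile 72.6). For CDK4 it was 0.35, for CCND1 0.34, for CCNE1 0.33 and for RB1 0.31, near the median of those genes at 0.32. CDK6 and CDKN1B had the lowest values at 0.24 each, at percentiles 26.4 and 24.9. With the GC trend removed the SD was 0.15 for CDK6 (percentile 11.8), 0.18 for RB1 (percentile 21.8) and 0.26 for CDKN1B (percentile 50.2), so that CDKN1B stood at the median of all genes.

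MYC, CCND3 and CCNE1 rose and fell together across the tumors. Over 21 tumors, Pearson r was 0.800 for MYC and CCND3 (Spearman rho 0.806), 0.774 for MYC and CCNE1 (rho 0.804) and 0.804 for CCND3 and CCNE1 (rho 0.857), each with an adjusted permutation p of 0.00049 for r and at most 0.000224 for rho over 28 pairs. These 3 pairs also passed with the GC trend of each library removed, at r 0.814, 0.713 and 0.728 (rho 0.773, 0.714 and 0.753), with adjusted permutation p-values of 0.00084, 0.00261 and 0.00261. Without the 2 tumors farthest from the median of the first gene, r was 0.799, 0.716 and 0.819. With Oxy186 r1-r4 left out, a setting added after the data were seen, it was 0.822, 0.808 and 0.814 over 17 tumors. The lowest tumors for MYC were Oxy186 r5, Oxy210 r5 and r4 and Control r2, and the same 4 tumors had CCND3 at 5.39 to 5.97 log2 CPM and CCNE1 at 3.50 to 3.79, low in the series for both.

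In all, 11 of the 28 pairs passed at an adjusted permutation p of 0.05, 8 of them positive and 3 negative, and r ran from -0.670 to 0.804. Among all pairs of 13608 genes, 22.0% had an absolute r of at least 0.553, the lowest of the 11. An r of at least 0.774, the lowest among MYC, CCND3 and CCNE1, was found in 2.52% of all pairs, and one of at least 0.713 with the GC trend removed in 0.926%. Of the other positive pairs, each with an adjusted p for r and for rho, the first was CDK6 and RB1 (r 0.770, rho 0.805, adjusted permutation p = 0.00049 and 0.00021). The rest were CDK4 and CCNE1 (r 0.653, rho 0.796, adjusted p = 0.00593 and 0.00021), CCND3 and CDK4 (r 0.605, rho 0.721, adjusted p = 0.0121 and 0.00168), MYC and CCND1 (r 0.585, rho 0.416, adjusted p = 0.0167 and 0.101) and CCND1 and CCND3 (r 0.553, rho 0.482, adjusted p = 0.0244 and 0.0524). The relation of MYC and CCND1 fell to r 0.302 without the 2 tumors farthest from the median of MYC, so it rests on those tumors, and CCND1 and CCND3 fell to 0.402. RB1 ran against CCND3 (r -0.670, rho -0.681, adjusted permutation p = 0.00582 and 0.00367) and CDK4 (r -0.630, rho -0.730, adjusted p = 0.00896 and 0.00154). CDK6 ran against CCND3 (r -0.560, rho -0.552, adjusted permutation p = 0.0238 and 0.0249). With the GC trend removed, these 8 pairs no longer passed and CDK6 and RB1 were at r 0.424. MYC and CDK4, whose promoter entry holds the CACGTG copies above, were at r 0.424 (rho 0.649, adjusted permutation p = 0.0967 and 0.00619). That pair passed by rho and not by r, and was at r 0.250 with the GC trend removed.

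**Figure D5:**
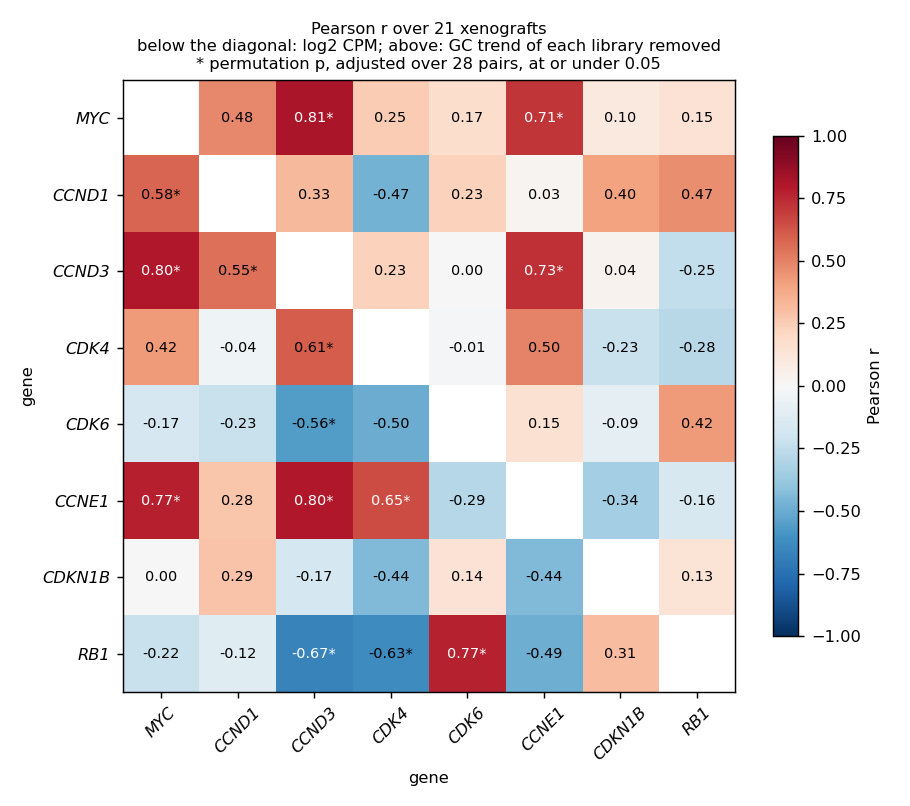
Pearson r between pairs of 8 genes over 21 tumors, on log2 CPM below the diagonal and with the GC trend of each library removed above it; the color scale runs from -1 to 1 and an asterisk marks an adjusted permutation p of 0.05 or under. The block of MYC, CCND3 and CCNE1 is marked on both sides (0.774 to 0.804 below, 0.713 to 0.814 above), while the 8 other marked pairs stand below the diagonal only.

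Each gene was also set beside genes most like it over the 21 tumors, by Pearson r of log2 CPM among 13608 genes. These values are descriptions, from the same libraries with the same depths. MYC was closest to PLK1, a mitotic kinase (r 0.935, and also 0.935 with the GC trend removed), and to FBLN1, an extracellular matrix protein (r 0.926). CCNE1 was closest to AURKB, a kinase of the chromosome passenger complex (r 0.918), and to BIRC5, its partner survivin (r 0.911). For CCND3, the deubiquitinase USP5 is given (r 0.940). CCND1 was closest to ZFAND3 (r 0.930) and the splicing factor SF3A1 (r 0.901). CDK4 was closest to DLL3, a Notch ligand (r 0.945, 0.704 with the GC trend removed), and LSM4, an RNA-binding protein of splicing (r 0.940). CDK6 was closest to WWTR1, the coactivator TAZ (r 0.895), and TWSG1 (r 0.889), and RB1 to the chromatin remodeler SMARCA5 (r 0.940) and ACSL4 (r 0.920). CDKN1B had the lowest of these maxima, with NFIL3 at r 0.787 and IRF2BP2 at r 0.779.

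The genes that act on or below these members were described from lists. Of 24 other G1/S regulators 23 were tested, the one left out being CDKN2B. None was called in Oxy186 or Oxy210 against control or between the oxysterols, and their median log2 fold changes were 0.04, 0.10 and -0.05, beside -0.01, 0.01 and -0.01 over all genes. CDKN1A, which encodes the CDK2 inhibitor p21, had the smallest p of the list in both comparisons with control, at -0.66 (SE 0.22, adjusted p = 0.862 by edgeR) for Oxy186 and -0.29 (SE 0.12, adjusted p = 0.306) for Oxy210. In r1-r4 against control 2 of the 23 rose and 3 fell, where 4.73% of all genes rose and 15.0% fell, so that the total is near the 19.7% over all genes. CDKN1A fell by 1.15 (SE 0.17, adjusted p = 0.000782), CDKN2D, the inhibitor p19, by 1.57 (SE 0.40, adjusted p = 0.0140) and E2F4 by 0.54, while MNAT1, a subunit of the CDK-activating kinase, and E2F5 rose by 0.56 and 0.44. CDKN2D had the lowest level of these 5, at an average log2 CPM of 0.70. With GC offsets only CDKN1A of these 5 still passed, at -0.65 (SE 0.17, adjusted p = 0.0427 by edgeR), and E2F4 was at 0.08.

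Of 14 partners and antagonists of MYC, 13 were tested in the comparisons of whole groups and 14 in r1-r4. MAX, the partner through which MYC binds DNA, had the smallest p of the list in both whole-group comparisons with control, at -0.35 (SE 0.16, adjusted p = 0.862 by edgeR) for Oxy186 and -0.36 (SE 0.11, adjusted p = 0.267) for Oxy210, and neither passed. In r1-r4 against control 4 of 14 fell and 0 rose, beside 15.0% and 4.73% of all genes. MAX fell by 0.53 (SE 0.13, adjusted p = 0.0130), MXD3 by 1.67 (SE 0.28, adjusted p = 0.00148), MXD4 by 1.01 (SE 0.23) and MLXIP by 0.53 (SE 0.17). MXD3 and MXD4 bind MAX in place of MYC and repress its targets. With GC offsets MAX was at -0.52 (adjusted p = 0.0202) and MXD3 at -1.09 (adjusted p = 0.0172), and both still passed, while MXD4 (-0.24) and MLXIP (-0.14) did not. ZBTB17, which encodes MIZ1, a factor through which MYC represses genes, was at -0.23 (adjusted p = 0.353) without the offsets and at 0.81 (adjusted p = 0.00175) with them.

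All 30 MYC target genes of the list were tested. The MYC gene set for which the study reported negative enrichment was not analysed here. Their median log2 fold change was 0.09 in Oxy186 against control, -0.04 in Oxy210 against control and 0.12 between the oxysterols, with 0 called in each and 3, 5 and 3 at an unadjusted p under 0.05, beside 3.79%, 13.8% and 4.06% of all genes. SRM, spermidine synthase, was at -0.55 (SE 0.25) and -0.61 (SE 0.20) in the comparisons with control, and NME1, a nucleoside diphosphate kinase, at 0.65 (SE 0.25) and 0.65 (SE 0.22) in Oxy186 against control and against Oxy210. In r1-r4 against control, where 4.73% of all genes rose and 15.0% fell, 2 of the 30 rose, NME1 (0.96, SE 0.26) and GNL3 (0.40, SE 0.13), and 7 fell, among them SLC19A1, a folate carrier (-1.19, SE 0.16), BOP1 (-1.23, SE 0.22) and PES1 (-0.64, SE 0.17), both of ribosome assembly. None of the 30 passed with GC offsets, where BOP1 was at -0.01 and SRM turned from -0.79 to 0.47. The list's median in r1-r4 was 0.13 without and 0.11 with the offsets.

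All 22 E2F/RB target genes, most of which serve DNA replication and which include CCNE1 itself, were tested too. Of these, 0 were called in the 3 comparisons of whole groups, and their medians were 0.09, 0.09 and 0.07. In Oxy186 against control 16 were above 0 and 6 below, and with GC offsets 22 and 0. Of all genes, 51.1% and 47.2% were below 0 in these 2 fits. In Oxy210 against control 14 were above 0 and 8 below, and with GC offsets 15 and 7. Between the oxysterols 17 were above 0 and 5 below, and with GC offsets 16 and 6. POLA1, the catalytic subunit of the primase-bound polymerase, had the smallest p of the list in both comparisons with control, at 0.30 (SE 0.18) and 0.40 (SE 0.14). In r1-r4 against control 1 of the 22 passed, beside 19.7% of all genes, namely CDT1, a factor that loads the replicative helicase, at -0.96 (SE 0.27, adjusted p = 0.0241 by edgeR), and it was at 0.16 with GC offsets. E2F1, the factor that RB1 holds back, was at -0.74 (SE 0.25, adjusted p = 0.0505). Both of these genes fell, but 14 of the 22 were above 0 and 8 below. The median of the list was 0.19, beside 0.01 over all genes. With GC offsets, 18 of the 22 were above 0 and 4 below, and 0 were called.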

How the data were processed

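RNA of 21 A549 xenografts, 7 per group, was sequenced, and the deposited tables hold raw counts for all tumors and log2 CPM for 11 of them (control and Oxy186 r1-r4). The authors trimmed reads with Trimmomatic 0.39, aligned them with STAR 2.7.6a to a combined human (GRCh38.p13) and mouse (GRCm39) genome, kept human alignments and counted unique reads per gene with featureCounts of Subread 2.0.1. The log2 values were made by the authors in edgeR (filterByExpr, then TMM), and the log2 CPM recomputed here was checked against them. How reads that match both species were counted was not tested, and the strand setting is not given in the sources used here.

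Counts were tested across the whole table with edgeR 4.0.16 (quasi-likelihood test, filterByExpr, TMM) in R 4.3.3, using the libraries of the groups compared, with adjustment by Benjamini-Hochberg and a threshold of 0.05. Total counts per tumor, 13787493 to 17865119, set the precision of low genes, and limits for a count of 0 (3 counts) cover counting error only. Alternatives were limma 3.58.1 (voom), DESeq2 1.42.0, RLE scaling, no filter, all 21 libraries in one fit, GC offsets (splines with 4 degrees of freedom per library), a replicate block with and without these offsets, a fold change over 2, and leaving out each library. Relations over tumors used 100000 permutations, two-sided. GENCODE 44 (GRCh38) gave exon length, base composition and positions, and matched 60481 of 60651 gene IDs. The scripts were tested on simulated data. Named genes are the 10 members, the up to 3 genes of smallest p per list and comparison, the called genes of a list in r1-r4 (chosen after their values were seen), the 2 genes most like each member (1 of them is not reported here), and the genes near CDKN2A. The members and lists were chosen with earlier results of these data known.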

Additional observations from a re-analysis of the deposited data

How the results depend on the processing

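No member was called in Oxy186 against control, Oxy210 against control or Oxy186 against Oxy210 under limma voom, DESeq2, RLE scaling, no filter, all libraries in one fit, GC offsets, the replicate block, the block with GC offsets, a required fold change over 2, or without any 1 library (0 to 0 called). In Oxy186 against Oxy210, DESeq2 gave an adjusted p to CCND1 alone of the 8, so its count there covers 1 gene. In Oxy186 r1-r4 against control the count was 1 with limma voom and 0 to 1 when 1 library was left out, the 1 being CDK4 without Oxy186 r3. The cause was not tested. Correlated pairs were 11 under RLE scaling, a prior count of 0.5, centering within groups and without r1-r4, and 3 with the GC trend removed, both over all tumors and without r1-r4, an alternative added after the data were seen. Over the whole table, r1-r4 against control gave 3323 genes by edgeR, 1406 with a fold change over 2, 683 with GC offsets and 68 with the block and GC offsets. Oxy210 against control gave 0 by edgeR, 92 by DESeq2, 11 with no filter and 2 with the block, and Oxy186 against Oxy210 gave 0 by edgeR, 14 by DESeq2 and 1 with no filter, with all libraries in one fit, with GC offsets and with the block and GC offsets.

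The signs of uncalled log2 fold changes turned in 23 of 256 values, apart from those with a library left out. With GC offsets, in Oxy186 against control, CCND3 was at 0.15, CCNE1 at 0.0386 and RB1 at -0.0829. In Oxy210 against control, CDK6 was at -0.0506 and CDKN1B at -0.0459, and in r1-r4 MYC was at 0.0385, CCND1 at 0.0198, CCND3 at 0.16 and CDKN1B at -0.18. CDK4 in Oxy186 against Oxy210, near 0 by edgeR, was at 0.0056 by DESeq2 and RLE scaling, 0.0119 with no filter and 0.0068 with all libraries in one fit.

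Replicate numbers are shared by the groups, but same-numbered tumors did not deviate together, with correlations of -0.40 to 0.05 between Control and Oxy186, -0.40 to 0.33 between Control and Oxy210 and -0.32 to 0.11 between the oxysterols, and 1 of 21 pairs correlated best with its own number. As a block, the replicate number turned no sign and changed no call; CDK4 in r1-r4 was at -0.60 (adjusted p = 0.127 by edgeR). With the block and GC offsets, in Oxy186 against control, CCND3 was at 0.14, CCNE1 at 0.0276 and RB1 at -0.0866. In Oxy210 against control, CDK6 was at -0.0475 and CDKN1B at -0.0625, and in r1-r4 MYC was at 0.15, CCND1 at 0.19, CCND3 at 0.21, CCNE1 at 0.0802 and CDKN1B at -0.27.

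Leaving out 1 library turned the sign of 14 of 32 log2 fold changes at least once. In Oxy186 against control, MYC ran from -0.21 to 0.0331, CCND3 from -0.25 to 0.0268, CCNE1 from -0.17 to 0.065, CDKN1B from -0.0729 to 0.0208 and RB1 from -0.063 to 0.12. In Oxy210 against control, CCND1 ran from -0.13 to 0.0236, CDK6 from -0.0188 to 0.0994 and CDKN1B from -0.0517 to 0.13. Between the oxysterols, MYC ran from -0.0476 to 0.18, CCND3 from -0.0018 to 0.32, CDK4 from -0.11 to 0.10 and CDKN1B from -0.15 to 0.0387. In r1-r4, MYC ran from -0.20 to 0.0286 and CDKN1B from -0.0253 to 0.13.

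Depth limits CCND2, which had at most 9 counts in a tumor and was not tested.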

Other observations

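Of 24 combinations of a member and a group of 7 tumors, 0 held a tumor whose gap to its nearest neighbor passed Dixon's 95% critical value, where chance gives about 1.2. In Oxy186 r5-r7, CDKN1B stood at 6.36, 6.36 and 6.37 log2 CPM while MYC spread from 5.06 to 6.56 in the same 3 tumors. That is 1 gene and 3 tumors picked from many, and it was not tested. The SD of CDKN1B was 0.20 in Oxy186 r1-r4 and 0.31 in Oxy210-treated samples.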
